A study of Mus musculus with 12 samples.

Results

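The genes described here are 40 mouse genes of mitosis and the mitotic spindle, taken as a list of symbols by function and matched to the Ensembl gene identifiers of the count files. This list and the other lists below were chosen with earlier results of these data known, so their counts of genes called are a description. All 40 were found once among the 49671 genes listed, and all 40 were among the 18668 genes tested. They were ordered by what their products do: mitotic kinases and cyclins (8 genes), the spindle assembly checkpoint and the anaphase-promoting complex or APC/C (6), the chromosomal passenger complex (4), centromere and kinetochore proteins (6), mitotic kinesins (6), other spindle and cytokinesis proteins (6), chromosome structure and proliferation genes (2) and transcription factors (2).

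Entry into mitosis is driven by the kinase Cdk1 with cyclin B, and the spindle, built from microtubules, kinesins and bundling proteins, attaches to chromosomes through the kinetochores. The checkpoint holds back the APC/C until every kinetochore is attached, after which the APC/C has cyclin B and securin degraded and the cell divides. Most of these genes are transcribed late in the cell cycle: the DREAM complex holds them low in quiescent cells, and B-Myb with MuvB and then Foxm1 raises them in cycling cells, in part through a promoter element called the cell cycle genes homology region (CHR) and nearby CCAAT boxes bound by NF-Y. Fibroblasts deprived of serum leave the cell cycle, and re-entry into mitosis takes many hours after serum is returned.

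The cells were NIH 3T3, immortalized fibroblasts first grown from mouse embryos, and their RNA was sequenced in 12 libraries, 3 for each of 4 groups. Cells received the AllStars negative control siRNA or 1 siRNA against total Lap2, which is aimed at both the membrane-anchored and the nucleoplasmic isoforms made from the Tmpo gene, and were kept in 0.3% FBS (serum-starved) or were given 15% FBS for 45 min (serum-stimulated). The labels name no other drug, transgene or allele. The control and Lap2 groups share the line, the transfection and the serum treatment, and with a single Lap2 siRNA an effect of depleting Lap2 and any other effect of that siRNA cannot be told apart. The study speaks of triplicates and the labels number them, but neither says that they were separate cultures, so the p-values measure the spread between these samples, which may be technical. In bulk RNA, more cycling cells, in mitosis or before it, and more RNA of a gene per cell cannot be told apart.

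Total counts per library lay between 18026298 and 26265253. Values are given as scaled CPM, the counts of a gene per 1000000 counts of the TMM-scaled library size, and differences as log2 fold changes (log2FC) with their standard errors from edgeR's quasi-likelihood test, called at a Benjamini-Hochberg adjusted p under 0.05 over all 18668 genes. Tmpo, the target of the siRNA, had 132, 133 and 137 scaled CPM in the 3 libraries of serum-starved control cells and 46.5, 55.7 and 51.8 in those of serum-starved Lap2-depleted cells, a log2FC of -1.38 ± 0.08 (SE, edgeR adjusted p = 8.73e-16). After serum it had 155, 154 and 143 scaled CPM with control siRNA and 36.4, 35.3 and 28.8 in Lap2-depleted cells, a log2FC of -2.17 ± 0.08 (SE, edgeR adjusted p = 3.77e-19). Of 12 fibroblast markers all 12 had at least 10 counts in every library, and 15 markers of other cell types summed to between 2.81 and 5.24 CPM, with Myod1 and Sox2 at 0 in every library. Of these 15, 1 had at least 10 counts in every library (Cd68, 22 to 54 counts). The fibroblast markers moved with the siRNA: their summed scaled CPM was 0.665 times the control in 0.3% FBS and 0.721 times in 15% FBS, with 9 of the 12 called lower and 2 higher in 0.3% FBS and 10 lower and 0 higher in 15% FBS. Of the other markers 9 were tested, and 2 of these were called lower in 15% FBS and 0 in 0.3% FBS. Their part in the results below was not tested.

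Among the libraries, replicate 1 of the serum-starved control cells was the highest of its group for 31 of the 40 genes. Replicate 1 of the serum-starved Lap2-depleted cells was the highest for 14 and the lowest for 20, and its difference from replicates 2 and 3 went down with exon length across the 40 genes (Pearson r = -0.59, Spearman rho = -0.52), while across 18605 tested genes the rho was -0.24. Genes share the library and its depth, so these correlations are a description. Leaving out either library left all 40 genes called in the comparison of the siRNAs in 0.3% FBS, and other values that it changed are given with the results.

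In serum-starved cells, all 40 genes were higher with Lap2 siRNA. Summed over the 40, scaled CPM was 1626, 1442 and 1500.5 in the 3 control libraries (1523 ± 94.0, SD, n = 3) and 2726, 2890.4 and 2935 in the 3 Lap2-depleted libraries (2851 ± 109.8, SD, n = 3), 1.87 times as much. The groups lay far apart, and of all counts in a library these genes took 0.150% to 0.169% with control siRNA and 0.305% to 0.328% with Lap2 siRNA. Of the 40 genes, 40 were called higher and 0 lower by edgeR, against 17.8% and 18.6% of all tested genes. Every library of Lap2-depleted cells was above every control library for 40 of the 40, as it was for 21.3% of all tested genes. The median log2FC of the 40 was 0.93 and that of all tested genes 0.01, and single genes ranged from 0.27 for Cdk1 to 1.43 for Mki67.

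**Figure D1:**
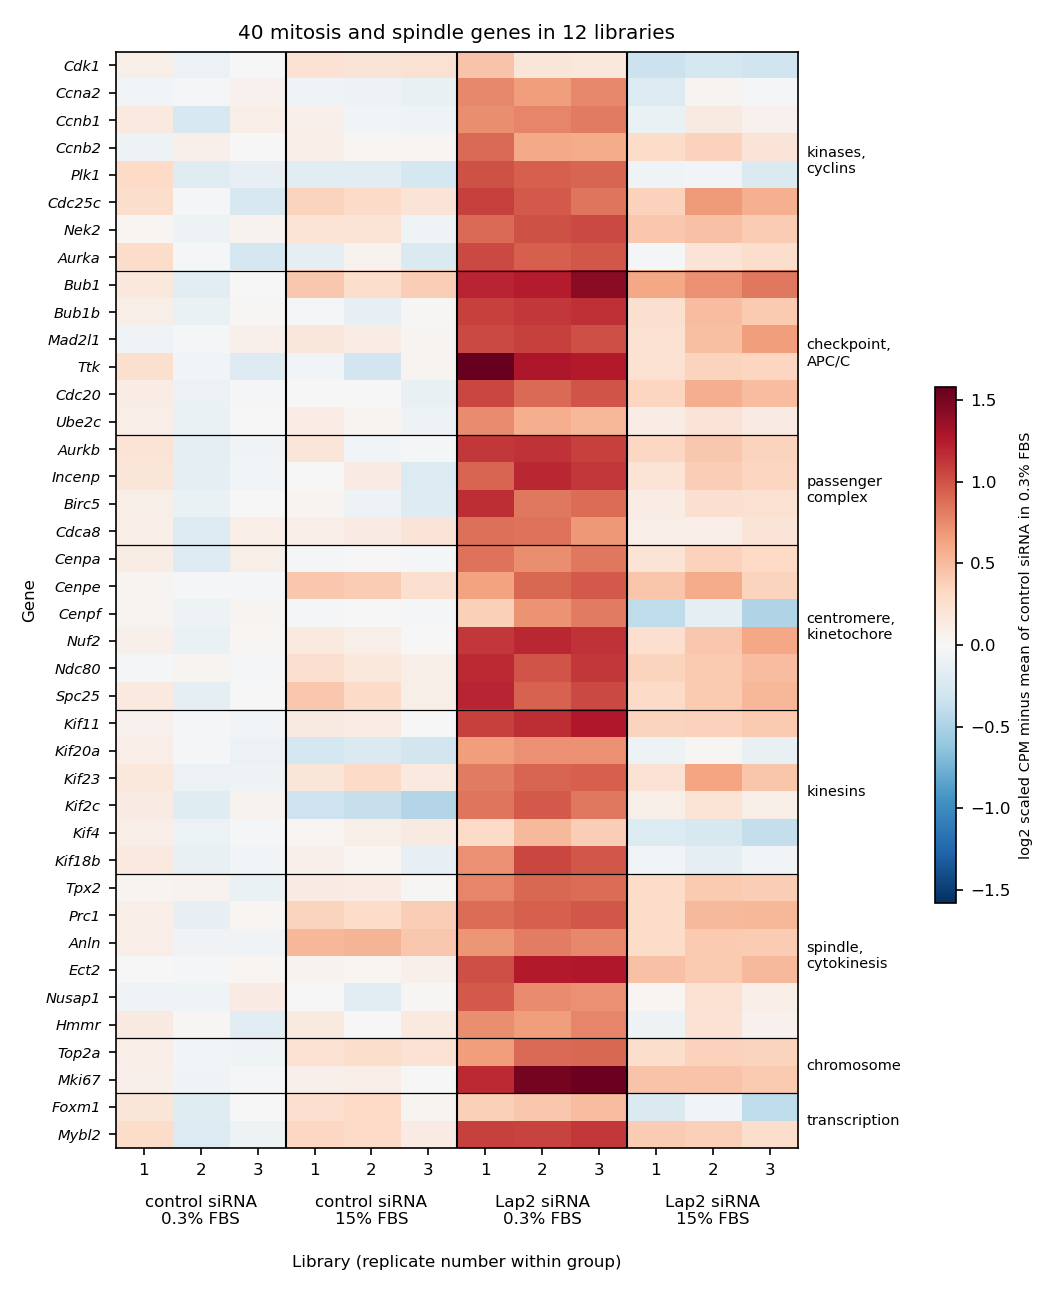
Heat map of the 40 mitosis and spindle genes (rows, by role) in 12 libraries (columns, 3 per group). Colour is the log2 scaled CPM minus the gene's mean in the 3 libraries of serum-starved control cells, and the 3 libraries of serum-starved Lap2-depleted cells stand above 0 for all 40 genes.

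After 45 min of 15% FBS the difference between the siRNAs was smaller and no longer ran in 1 direction. The summed scaled CPM was 1673, 1658.8 and 1589 in the control libraries (1640.2 ± 45.3, SD, n = 3) and 1725, 1890.4 and 1823 in the Lap2-depleted libraries (1813 ± 83.3, SD, n = 3), 1.11 times as much. The groups did not overlap, but the gap between them was small against the spread within them. Of the 40 genes, 18 were called higher and 4 lower by edgeR, against 11.4% and 12.1% of all tested genes, and 18 were not called. The median log2FC was 0.22, with 0.02 for all tested genes. The lower genes were Cdk1, Kif4, Cenpf and Foxm1, each of which was called higher in 0.3% FBS. Of the 22 calls 12 held under every alternative, while Aurkb, Birc5, Cenpf, Incenp, Kif20a, Mad2l1, Ndc80, Nek2, Nuf2 and Ttk each lost theirs when 1 or more single libraries were left out. The group of serum-starved Lap2-depleted cells had the highest of the 4 group means for 40 of the 40 genes.

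**Figure D2:**
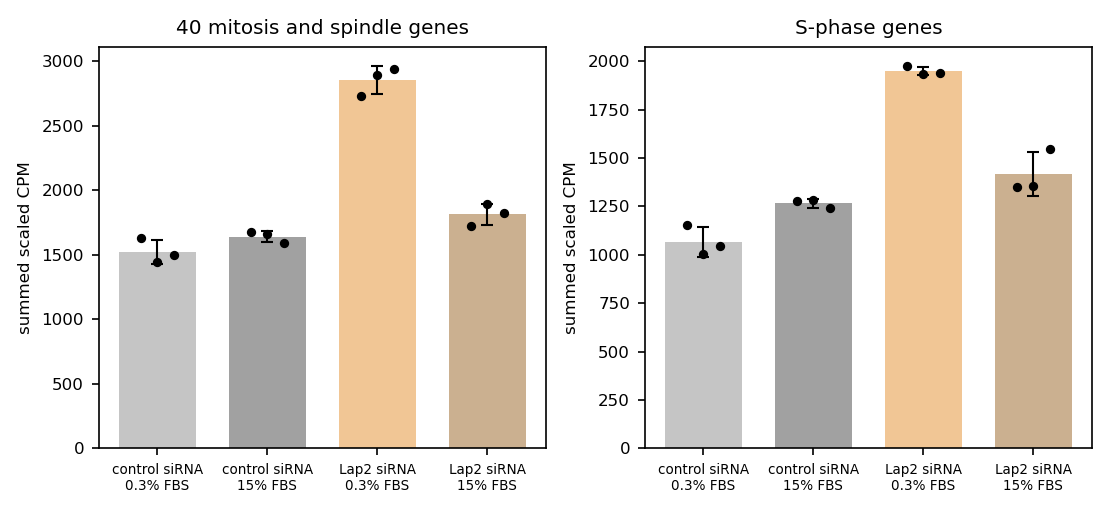
Summed scaled CPM of the 40 mitosis and spindle genes (left) and of 37 S-phase genes (right) in each group. Bars are means, error bars the SD and points the 3 libraries, with both axes starting at 0. The serum-starved Lap2-depleted cells stand highest in both panels, at 2851 and 1949 scaled CPM.

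Promoters were examined because the 40 genes moved together. Of the 40, 33 had an entry in the RefSeq promoter table (GRCm38.p6, 250 bases before to 50 after each start, 35 promoters in all), and Aurkb, Ccna2, Cdc25c, Foxm1, Incenp, Kif20a and Tpx2 had none. Each promoter was searched on both strands for TTTGAA, the core of the CHR, and for CCAAT. The word TTTGAA was found in 26 of the 35 promoters (74.3%) and in 17.9% of all 32851 promoters of the table, and CCAAT in 27 (77.1%) and in 37.4% of all. Both words were in 23 promoters (65.7%), against 6.95% of all, and they overlapped in 1 of them. Ect2 and Prc1 each had overlapping promoters in the table, so matches they share count more than once in these numbers and the next. By gene, TTTGAA was in 24 of the 33 and both words were in 21. Of 62 CCAAT matches that began before the start, 44 lay within 100 bases of it. Of 33 TTTGAA matches, 15 began before the start. A match is a run of letters and not evidence of binding.

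The promoters below show the 200 bases before the RefSeq start of Mki67 (the largest rise of the 40 in serum-starved cells), Cdk1 (the smallest) and of Kif11, Ect2 and Cdc20, which had the largest rise of their roles among the genes described library by library below that have both words before the start. Capitals mark TTTGAA and CCAAT, or their reverse complements TTCAAA and ATTGG, and each sequence runs 5′ to 3′ on the strand of the gene.
Mki67, chr7:135716380-135716579, minus strand: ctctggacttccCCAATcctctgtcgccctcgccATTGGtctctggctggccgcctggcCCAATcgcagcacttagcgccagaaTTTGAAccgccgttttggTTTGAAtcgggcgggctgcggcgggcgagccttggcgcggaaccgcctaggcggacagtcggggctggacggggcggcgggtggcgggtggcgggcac
Cdk1, chr10:69352913-69353112, minus strand: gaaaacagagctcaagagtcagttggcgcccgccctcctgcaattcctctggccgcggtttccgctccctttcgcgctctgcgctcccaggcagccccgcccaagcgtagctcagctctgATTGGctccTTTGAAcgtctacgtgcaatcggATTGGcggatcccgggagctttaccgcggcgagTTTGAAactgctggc
Kif11, chr19:37376182-37376381, plus strand: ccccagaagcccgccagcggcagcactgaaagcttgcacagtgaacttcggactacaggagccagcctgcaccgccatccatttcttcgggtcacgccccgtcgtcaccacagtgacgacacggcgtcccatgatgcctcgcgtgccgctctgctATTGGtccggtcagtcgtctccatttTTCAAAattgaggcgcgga
Ect2, chr3:27153879-27154078, minus strand: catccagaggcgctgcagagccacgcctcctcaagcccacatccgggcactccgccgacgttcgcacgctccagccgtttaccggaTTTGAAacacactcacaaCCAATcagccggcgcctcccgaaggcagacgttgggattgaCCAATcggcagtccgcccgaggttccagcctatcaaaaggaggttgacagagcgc
Cdc20, chr4:118437344-118437543, minus strand: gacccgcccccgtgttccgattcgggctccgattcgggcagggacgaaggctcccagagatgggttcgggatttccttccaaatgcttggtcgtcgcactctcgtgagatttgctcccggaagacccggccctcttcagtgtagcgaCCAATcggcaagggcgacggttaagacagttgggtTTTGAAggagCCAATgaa

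Within the list, the genes with and without TTTGAA had rises of similar size. In 0.3% FBS the 24 genes with TTTGAA in a promoter had a median log2FC of 0.91 (from 0.27 to 1.43) and the 9 without it a median of 0.98 (from 0.76 to 1.29). In 15% FBS, 9 of the 24 with it were called higher and 3 lower, and 5 of the 9 without it were called higher and 0 lower. Outside the list, 701 tested genes had both words in a promoter: their median log2FC in 0.3% FBS was 0.05, and 27.2% of them were called higher, beside 20.9% of all 11772 tested genes outside the list that had a promoter entry. No test was made of these shares.

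Among the mitotic kinases and cyclins, all 8 genes rose in serum-starved cells. Cdk1 (ENSMUSG00000019942, minus strand of chromosome 10 from 69336635 to 69352938 in mm10) encodes the kinase that starts mitosis, and had 46.5, 40.9 and 43.5 scaled CPM with control siRNA and 59.4, 49.6 and 48.9 in Lap2-depleted cells. All 3 Lap2-depleted libraries were higher, but the lowest of them was close to the highest control library, and the log2FC of 0.27 ± 0.08 (SE, edgeR adjusted p = 0.00559) was the smallest of the list. Nek2, a centrosomal kinase, rose most of the 8, from 19.5, 18.1 and 19.9 to 35.6, 38.7 and 39.5 scaled CPM (log2FC 0.98 ± 0.09, SE, edgeR adjusted p = 6.88e-11). Plk1 and Aurka, kinases of spindle assembly, had log2FC of 0.94 and 0.97, the cyclins Ccna2, Ccnb1 and Ccnb2 0.73, 0.76 and 0.70, and the phosphatase gene Cdc25c, whose product activates Cdk1, 0.95.

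After serum, 1 of these 8 was called higher and 1 lower, near the 11.4% and 12.1% of all tested genes. Cdk1 had 51.1, 50.1 and 51.3 scaled CPM in the control libraries and 34.4, 35.9 and 35.1 in the Lap2-depleted libraries, which were all lower (log2FC -0.53 ± 0.08, SE, edgeR adjusted p = 3.79e-06). Nek2 remained higher, at 25.8, 26.4 and 25.2 against 22.3, 22.3 and 18.3 scaled CPM (log2FC 0.30, edgeR adjusted p = 0.0145). Ccna2, which encodes cyclin A2, was raised from 59.5, 59.9 and 63.8 to 103, 96.6 and 104 scaled CPM in 0.3% FBS, but in 15% FBS its values of 58.4, 57.9 and 56.0 with control siRNA and 52.6, 62.9 and 59.7 in Lap2-depleted cells overlapped (log2FC 0.02 ± 0.07, SE, edgeR adjusted p = 0.876). The remaining 5 had log2FC between 0.05 (Ccnb1) and 0.26 (Aurka) and were not called.

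The 6 checkpoint and APC/C genes had a median log2FC of 1.08 in serum-starved cells. Ttk encodes Mps1, the kinase that starts checkpoint signalling, and went from 8.79, 7.19 and 6.39 scaled CPM to 22.1, 18.0 and 17.6 in serum-starved cells (log2FC 1.37 ± 0.13, SE, edgeR adjusted p = 1.17e-10). Ube2c, the ubiquitin-conjugating enzyme of the APC/C, went from 31.1, 26.9 and 28.8 to 48.4, 42.9 and 41.5 (log2FC 0.61 ± 0.08, SE, edgeR adjusted p = 2.61e-07). For both genes every Lap2-depleted library was above every control library. The checkpoint genes Bub1, Bub1b and Mad2l1 rose by 1.29, 1.12 and 1.05 on the log2 scale.

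Of these 6 genes, 5 were still higher with Lap2 siRNA after serum, the largest share of the roles with more than 4 genes. Cdc20, the activator of the APC/C (ENSMUSG00000006398, minus strand of chromosome 4 from 118432901 to 118437352), had 62.8, 54.6 and 56.9 scaled CPM in serum-starved control cells and 120.3, 108 and 115 in Lap2-depleted cells, and 58.2, 57.5 and 53.5 and 73.7, 86.7 and 81.2 after serum. Lap2-depleted libraries were above the control libraries in both conditions, with log2FC of 0.98 (edgeR adjusted p = 8.18e-13) and 0.51 (edgeR adjusted p = 2e-06). Ttk had 7.15, 6.00 and 7.61 scaled CPM with control siRNA and 8.76, 9.45 and 9.34 in Lap2-depleted cells after serum, a log2FC of 0.41 ± 0.14 (SE, edgeR adjusted p = 0.0254). Ube2c was the exception, with overlapping values of 31.4, 29.7 and 27.3 and 31.4, 33.3 and 31.7 scaled CPM (log2FC 0.12 ± 0.08, SE, edgeR adjusted p = 0.354).

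The 4 genes of the chromosomal passenger complex, which corrects faulty attachments and steers cytokinesis, all rose in 0.3% FBS, with a median log2FC of 1.02. Its kinase Aurkb had 20.2, 15.6 and 16.7 scaled CPM in serum-starved control cells and 37.8, 38.4 and 36.9 in Lap2-depleted cells (log2FC 1.11 ± 0.09, SE, edgeR adjusted p = 1.71e-11). The 3 Lap2-depleted libraries were nearly equal and far above the controls. Cdca8, which encodes borealin, went from 22.8, 18.2 and 22.8 to 38.6, 38.5 and 34.0 scaled CPM (log2FC 0.80, edgeR adjusted p = 8.17e-09), and the scaffold gene Incenp from 48.2, 38.1 and 41.0 to 79.9, 96.1 and 91.9 (log2FC 1.07, edgeR adjusted p = 8.78e-12). Birc5, which encodes survivin, had a log2FC of 0.97. After serum, Aurkb, Incenp and Birc5 were called higher with log2FC of 0.32, 0.34 and 0.28. Incenp then had 42.2, 46.1 and 36.4 scaled CPM with control siRNA and 49.0, 55.3 and 53.4 in Lap2-depleted cells, and Aurkb 19.9, 16.8 and 17.1 and 21.7, 23.3 and 22.2. Cdca8 was not called and its groups overlapped, with 22.8, 23.2 and 24.3 and 22.8, 22.7 and 24.4 scaled CPM (log2FC -0.01 ± 0.09, SE, edgeR adjusted p = 0.984).

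Centromere and kinetochore genes all rose in 0.3% FBS, and parted after serum. Nuf2, a subunit of the Ndc80 complex that grips microtubules, had 27.2, 23.9 and 26.3 scaled CPM in serum-starved control cells and 55.8, 58.8 and 56.9 in Lap2-depleted cells (log2FC 1.15 ± 0.08, SE, edgeR adjusted p = 6.31e-13). Its partners Ndc80 and Spc25 rose by 1.10 and 1.06 on the log2 scale, and Cenpa, the histone H3 variant of centromeres, by 0.80. Cenpf, a large protein of the outer kinetochore, went from 70.4, 64.9 and 70.3 to 88.9, 112 and 121 scaled CPM (log2FC 0.65 ± 0.09, SE, edgeR adjusted p = 1.97e-07), with replicate 1 the lowest of the 3 Lap2-depleted libraries. Cenpe, a kinetochore kinesin, went from 63.0, 60.3 and 60.0 to 95.2, 114 and 119.7 (log2FC 0.84, edgeR adjusted p = 1.33e-10), again with replicate 1 the lowest.

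After serum, Nuf2, Cenpa and Ndc80 were called higher with Lap2 siRNA (log2FC 0.36, 0.32 and 0.24). The call of Ndc80 was lost with no filter on low counts (edgeR adjusted p = 0.0804) and when any of 8 libraries was left out. Cenpf was called lower, with 67.2, 68.1 and 66.9 scaled CPM in the control libraries and 52.0, 61.5 and 49.1 in the Lap2-depleted libraries (log2FC -0.32 ± 0.09, SE, edgeR adjusted p = 0.00773). The call of Cenpf was lost with scaling to total counts alone (log2FC -0.23, edgeR adjusted p = 0.0528) and without replicate 3 of the serum-stimulated Lap2-depleted cells (log2FC -0.26, edgeR adjusted p = 0.0594). Nuf2 values were 28.8, 27.5 and 25.7 with control siRNA and 31.0, 34.6 and 39.3 in Lap2-depleted cells. Cenpe had overlapping values of 82.2, 80.7 and 72.6 and 82.8, 91.4 and 77.9 scaled CPM (log2FC 0.10, edgeR adjusted p = 0.439), and Spc25 a log2FC of 0.14 without a call.

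**Figure D3:**
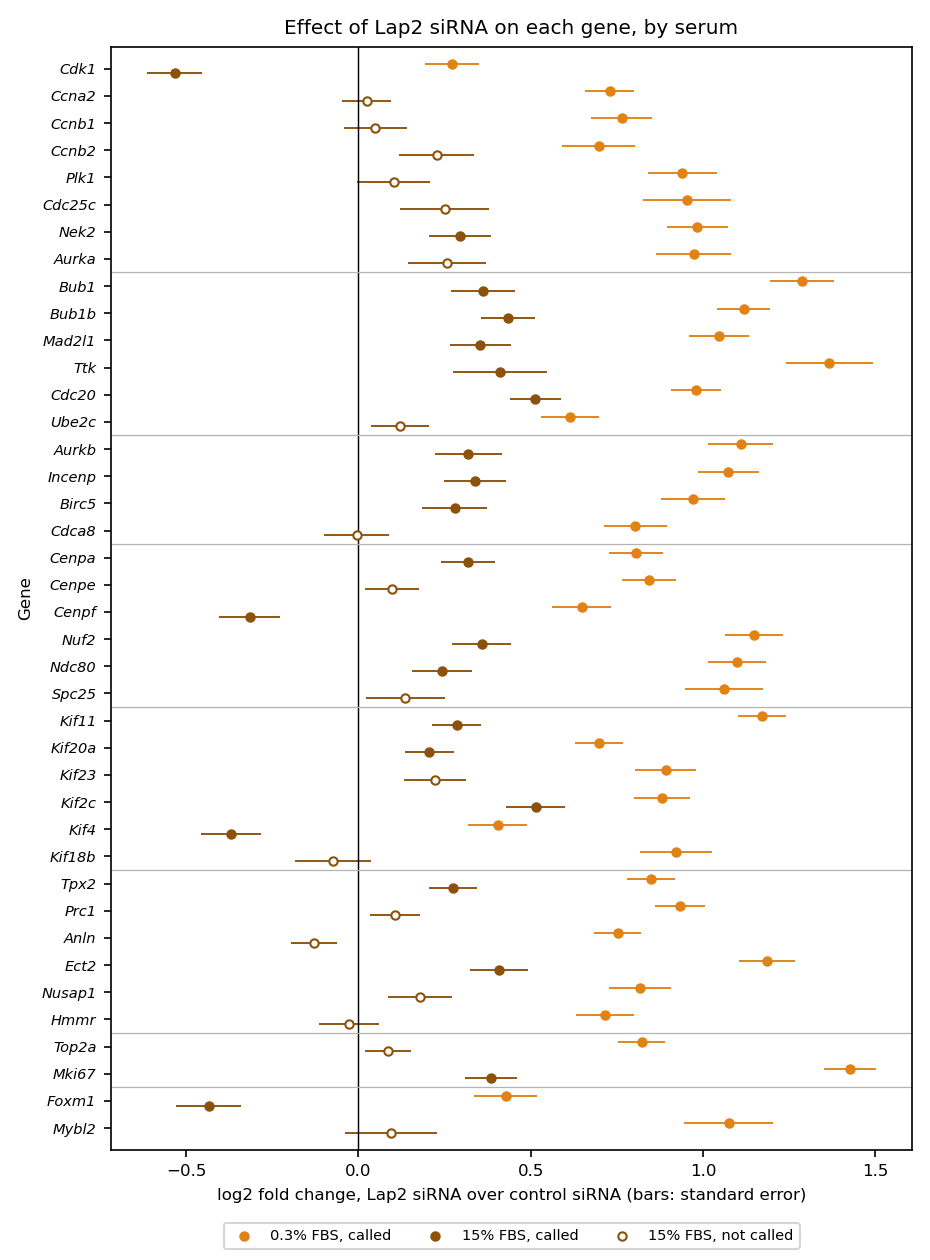
Effect of Lap2 siRNA on each of the 40 genes (rows, in the order of their roles, with lines between roles), as the log2 fold change of Lap2 siRNA over control siRNA in 0.3% FBS (light) and 15% FBS (dark), with standard errors from edgeR. Filled points passed an adjusted p under 0.05: 40 genes lie above 0 in 0.3% FBS, and in 15% FBS 18 filled points lie above 0 and 4 below it.

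The 6 mitotic kinesins are motors of the spindle and of chromosomes. Kif11 (ENSMUSG00000012443, plus strand of chromosome 19 from 37376403 to 37421859), which pushes the spindle poles apart, had 49.9, 46.9 and 46.3 scaled CPM in serum-starved control cells and 101, 107 and 115 in Lap2-depleted cells, the largest rise of the role (log2FC 1.17 ± 0.07, SE, edgeR adjusted p = 4.13e-15). Kif4, the mouse gene for the chromosome-bound kinesin KIF4A, went only from 27.9, 24.2 and 25.6 to 32.0, 37.0 and 33.8 (log2FC 0.40 ± 0.09, SE, edgeR adjusted p = 0.00025). Both were apart from the control libraries, Kif4 by a small margin. Kif2c, which takes microtubules apart at centromeres, went from 34.4, 27.7 and 32.9 to 56.8, 61.6 and 56.4 scaled CPM (log2FC 0.88), and Kif18b, a kinesin of microtubule plus ends, from 15.0, 12.5 and 13.1 to 22.2, 28.0 and 26.7 (log2FC 0.92). Kif23 and Kif20a, kinesins of the central spindle, had log2FC of 0.89 and 0.70.

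After serum, Kif2c was the kinesin with the largest positive difference, with 25.2, 24.5 and 22.9 scaled CPM in the control libraries and 33.7, 36.5 and 33.7 in the Lap2-depleted libraries (log2FC 0.51 ± 0.09, SE, edgeR adjusted p = 2.02e-05). Kif11 was still higher, at 61.0, 61.3 and 63.6 against 52.8, 51.8 and 48.0 (log2FC 0.28, edgeR adjusted p = 0.0025), and Kif20a too (log2FC 0.21, edgeR adjusted p = 0.0323). The call of Kif20a was lost with no filter on low counts (edgeR adjusted p = 0.0653) and when any of 6 libraries was left out. Kif4 had turned the other way, with 26.5, 27.5 and 28.6 scaled CPM in the control and 22.3, 21.8 and 19.9 in the Lap2-depleted libraries, all lower (log2FC -0.37 ± 0.09, SE, edgeR adjusted p = 0.00179). Kif18b values overlapped, at 14.3, 13.8 and 12.3 and 13.1, 12.2 and 13.1 scaled CPM (log2FC -0.07, edgeR adjusted p = 0.715).

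Among other spindle and cytokinesis genes, Ect2, which encodes the exchange factor that activates RhoA at the division plane (ENSMUSG00000027699, minus strand of chromosome 3 from 27097222 to 27153878), had 21.8, 21.4 and 22.3 scaled CPM in serum-starved control cells and 44.4, 52.1 and 52.6 in Lap2-depleted cells (log2FC 1.19 ± 0.08, SE, edgeR adjusted p = 1.47e-13). Hmmr, which encodes a spindle-associated hyaluronan receptor, went from 37.7, 34.7 and 30.4 to 56.8, 53.9 and 58.1 scaled CPM (log2FC 0.71 ± 0.08, SE, edgeR adjusted p = 2.11e-08). Both genes had groups that did not overlap. Prc1, which bundles the microtubules of the central spindle, rose by 0.93 on the log2 scale, the Aurora A activator Tpx2 by 0.85, the spindle protein Nusap1 by 0.82 and Anln, which encodes the actin-binding protein anillin, by 0.75. After serum, Ect2 (22.7, 22.4 and 23.1 scaled CPM with control siRNA and 30.2, 29.0 and 31.2 in Lap2-depleted cells) and Tpx2 were called higher, with log2FC of 0.41 and 0.27. Hmmr values overlapped, at 38.0, 34.1 and 38.0 and 32.3, 39.9 and 35.8 scaled CPM (log2FC -0.03, edgeR adjusted p = 0.881), and the other 3 were not called.

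Mki67 encodes the proliferation antigen Ki-67, which coats mitotic chromosomes (ENSMUSG00000031004, minus strand of chromosome 7 from 135689784 to 135716361). It had 112, 102 and 104 scaled CPM in serum-starved control cells and 239.6, 303 and 311 in Lap2-depleted cells, a log2FC of 1.43 ± 0.08 (SE, edgeR adjusted p = 2.15e-16), and after serum 112, 114 and 105 with control siRNA and 145, 145 and 142 in Lap2-depleted cells, a log2FC of 0.38 ± 0.07 (SE, edgeR adjusted p = 0.000188). The lowest Lap2-depleted library exceeded the highest control library in both conditions. Top2a, the topoisomerase that untangles sister chromatids, had 194, 176 and 173 and 285, 337 and 338 scaled CPM in serum-starved cells (log2FC 0.82, edgeR adjusted p = 8.02e-12). After serum it had 213, 218 and 212 and 219, 233 and 231, a difference that was not called (log2FC 0.09, edgeR adjusted p = 0.425).

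The transcription factors of the list, both activators of late cell cycle genes, differed from each other. Mybl2, which encodes B-Myb, had 7.72, 5.42 and 5.98 scaled CPM in serum-starved control cells and 13.3, 13.2 and 13.7 in Lap2-depleted cells (log2FC 1.07 ± 0.13, SE, edgeR adjusted p = 2.66e-08). Foxm1 (ENSMUSG00000001517, plus strand of chromosome 6 from 128362967 to 128376146) had 43.8, 33.6 and 38.0 and 49.8, 51.4 and 53.8 scaled CPM, a smaller rise with replicate 1 of the controls close below the Lap2-depleted libraries (log2FC 0.43 ± 0.09, SE, edgeR adjusted p = 0.000323). After serum, Foxm1 was lower in all 3 Lap2-depleted libraries, at 32.7, 37.0 and 28.9 against 45.9, 47.6 and 39.4 (log2FC -0.43 ± 0.09, SE, edgeR adjusted p = 0.000642), while Mybl2 values of 7.91, 7.78 and 6.87 and 8.32, 8.19 and 7.65 scaled CPM overlapped (log2FC 0.09, edgeR adjusted p = 0.699).

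**Figure D4:**
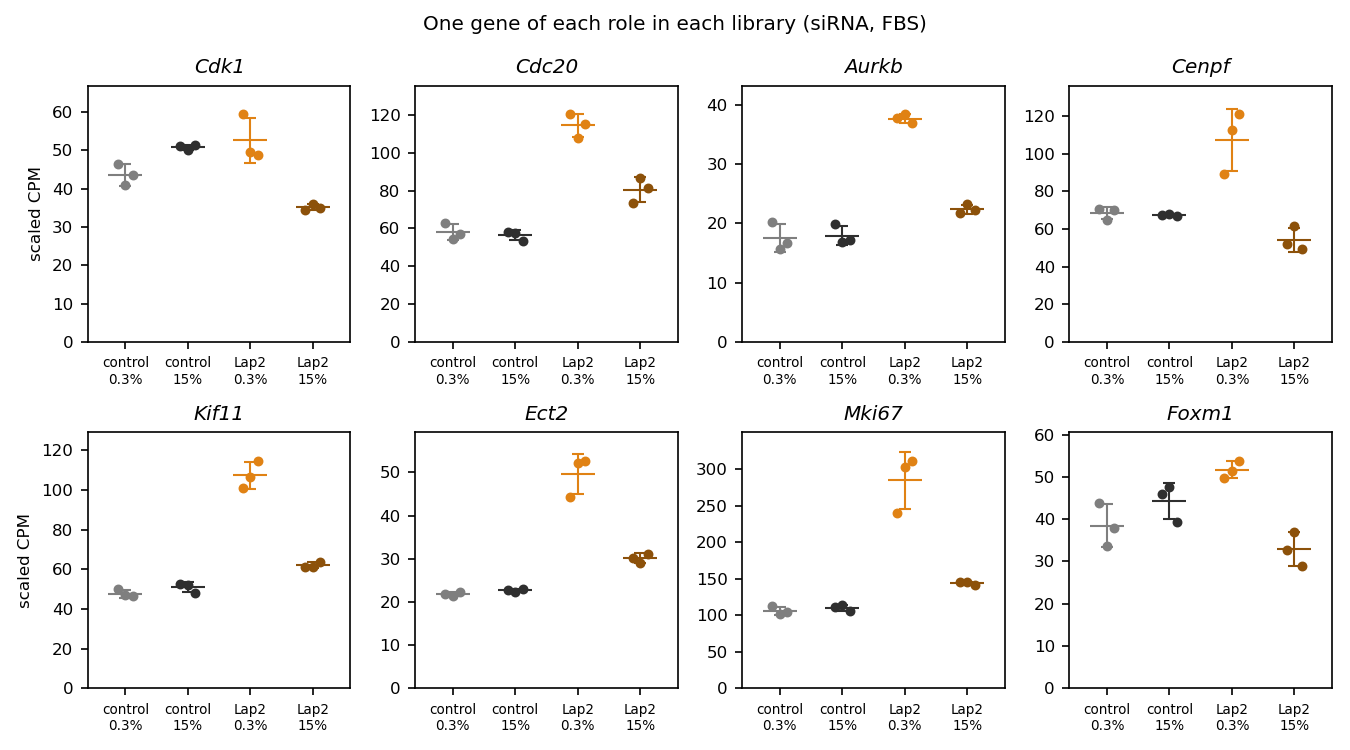
Scaled CPM of 1 gene of each role in each of the 12 libraries (points), with the mean and SD of each group (horizontal line and error bar), on axes that start at 0. Cdc20, Aurkb, Kif11, Ect2 and Mki67 are higher with Lap2 siRNA in both serum conditions, while Cdk1, Cenpf and Foxm1 are higher in 0.3% FBS and lower in 15% FBS.

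Levels differed widely between these genes. Per kilobase of exon, Cdc20 was the most abundant of the 40 in serum-starved control cells (31.1 scaled CPM per kb), followed by Top2a (20.1), Ccna2 (15.0) and Kif20a (12.9). The lowest were Mybl2 (1.38), Ttk (1.52) and Cdc25c (1.53). Exon lengths were those of the merged exons of each gene in GENCODE vM21, from 1531 to 15433 bases. This annotation differs from that of the counting: of 49326 genes found in both, 45091 had the same coordinates. The exon lengths may therefore differ too.

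After 45 min of serum in control cells, the share of the 40 genes called higher was near that of all tested genes. The share called lower was below it. Of the list, 6 were called higher and 2 lower by edgeR, against 15.6% and 13.9% of all tested genes, with a median log2FC of 0.07. Anln rose most, from 78.1, 69.6 and 69.9 to 104, 105 and 97.2 scaled CPM (log2FC 0.50 ± 0.07, SE, edgeR adjusted p = 3.36e-07), and its groups were far apart. Bub1, Cenpe, Prc1, Top2a and Cdk1 rose by 0.36, 0.36, 0.34, 0.24 and 0.22 on the log2 scale. Kif2c had log2FC of -0.38 and Kif20a of -0.27, both called lower. These counts moved with the scaling: with total counts alone, which shifted the median log2FC of all tested genes to -0.215, 1 gene was called higher and 12 lower and the median of the 40 was -0.135, and with upper-quartile factors (median of all genes -0.104) 4 were called higher and 4 lower. Without replicate 1 of the serum-starved control cells 11 were called higher. Bub1, Cdk1, Cenpe, Prc1 and Top2a lost their calls with total counts alone, and Cdk1 also when any of 5 libraries was left out. Across the 40 genes this log2FC went up with exon length (Pearson r = 0.41, Spearman rho = 0.52), beside a rho of 0.09 across 18605 tested genes.

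In Lap2-depleted cells, all 40 genes were lower after serum. Of the 40 genes, 40 were called lower and 0 higher by edgeR, against 14.9% and 18.3% of all tested genes, and every serum-stimulated library was below every serum-starved library for 40 of the 40, as it was for 19.1% of tested genes. The median log2FC was -0.68, with 0.00 for all tested genes. Plk1 fell from 42.4, 40.9 and 40.1 to 20.4, 20.6 and 18.0 scaled CPM (log2FC -1.07 ± 0.10, SE, edgeR adjusted p = 1.87e-10), and Ttk had a log2FC of -1.07, Cenpf of -0.99 and Mki67 of -0.98. At the other end stood Cenpe (-0.38) and Anln (-0.38), which went from 117, 127 and 122 to 88.3, 96.3 and 95.8 scaled CPM. With total counts alone the median of the 40 was -0.91 while that of all tested genes was -0.226. The summed scaled CPM of the list after serum was 0.636 times that before, in contrast to 1.08 times in control cells. Tmpo, the target of the siRNA, was also lower after serum in Lap2-depleted cells (log2FC -0.62 ± 0.08, SE, edgeR adjusted p = 1.9e-07). Serum and the remaining level of Tmpo thus changed together, and their parts in the fall cannot be told apart.

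The difference between the effects of Lap2 siRNA in 15% and in 0.3% FBS was tested as the interaction in the same fit. It was called lower for 40 of the 40 genes and higher for 0, against 6.51% and 7.09% of all tested genes, with a median of -0.74 on the log2 scale (0.02 for all tested genes). The smallest in size was that of Kif2c (-0.37 ± 0.12, SE, edgeR adjusted p = 0.0339) and the largest that of Mki67 (-1.04 ± 0.11, SE, edgeR adjusted p = 8.69e-09). Kif2c and Ccnb2 (adjusted p = 0.0356 by edgeR) were near the threshold, and each lost its call when 1 of several libraries was left out, so that 38 to 40 genes were called. Across the 40 genes the interaction went down with exon length (Pearson r = -0.42, Spearman rho = -0.35), beside a rho of -0.04 across 18605 tested genes, and the part of exon length was not tested. Tmpo also had an interaction called lower (-0.79 ± 0.11, SE, edgeR adjusted p = 2.95e-06), and the part of its level was not tested. The effect of Lap2 siRNA in 0.3% FBS, the serum response of Lap2-depleted cells and the interaction share the 3 libraries of serum-starved Lap2-depleted cells, and each of these 4 comparisons of 2 groups shares libraries with others, so they are not independent of each other.

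Other genes of mitosis and the cell cycle, listed by function, were then set beside the 40. Among all tested genes, 17.8% were called higher and 18.6% lower with Lap2 siRNA in 0.3% FBS, and 11.4% and 12.1% in 15% FBS. Of 38 other kinetochore and checkpoint genes, 33 were called higher and 0 lower by edgeR with Lap2 siRNA in 0.3% FBS (median log2FC 0.79), and 8 higher and 1 lower in 15% FBS (median 0.13). In 0.3% FBS the called gene with the largest log2FC was Kntc1, a subunit of the complex that recruits dynein to kinetochores, from 26.4, 21.2 and 22.7 to 64.4, 70.6 and 64.0 scaled CPM (log2FC 1.50), and that with the smallest the checkpoint gene Bub3 (log2FC 0.27). In 15% FBS they were Sgo1, the protector of centromeric cohesion (log2FC 0.53), and Ska2, a microtubule-binding kinetochore gene, with 32.2, 31.0 and 32.8 scaled CPM in the control and 20.9, 26.6 and 24.9 in the Lap2-depleted libraries (log2FC -0.40, edgeR adjusted p = 0.000471). Ska2 was called higher in 0.3% FBS (log2FC 0.29), as Cdk1, Kif4, Cenpf and Foxm1 were.

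Of 38 other spindle and cytokinesis genes, 32 were called higher and 0 lower in 0.3% FBS (median log2FC 0.77), and 8 higher and 3 lower in 15% FBS (median 0.06). Cep55, which acts in the final cut of cytokinesis, had the largest log2FC in 0.3% FBS (1.49), and Numa1, a protein of the spindle poles, the smallest of those called (0.20), with groups that overlapped. In 15% FBS Depdc1b had the largest (0.84). Gtse1, a microtubule-binding protein gene, was the lowest: it had 18.3, 15.5 and 13.5 scaled CPM with control siRNA and 6.57, 5.28 and 4.86 in Lap2-depleted cells after serum (log2FC -1.51 ± 0.16, SE, edgeR adjusted p = 6.14e-09), and 19.5, 12.4 and 12.7 and 13.8, 13.7 and 10.9 in serum-starved cells, where it was not called.

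Of 21 condensin, cohesin and separase genes, 16 were called higher and 0 lower in 0.3% FBS and 10 and 0 in 15% FBS. Cdca5, which encodes the cohesin protector sororin, had the largest log2FC in 0.3% FBS (1.41) and the cohesin subunit Rad21 the smallest of those called (0.22), and in 15% FBS these were Esco2, a cohesin acetyltransferase (0.59), and Stag1 (0.20). Regulators of mitotic entry and exit were mixed, with 16 of 28 tested called higher and 1 lower in 0.3% FBS, and 8 and 2 in 15% FBS. Fbxo5, an inhibitor of the APC/C, had log2FC of 1.15 in 0.3% FBS, and Anapc2, a subunit of the APC/C, of -0.16. In 15% FBS the histone kinase Haspin had 0.89, and the kinase Melk had -0.56, against 0.46 in 0.3% FBS. All of these values were called. The count of 1 lower in 0.3% FBS, which is Anapc2 (edgeR adjusted p = 0.0452), was 0 under 10 of 19 alternatives and reached 4.

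The list of 17 DREAM and MuvB genes also held Rb1, Dyrk1a and the NF-Y genes Nfya, Nfyb and Nfyc. Of these 17, 8 were called higher and 1 lower in 0.3% FBS and 6 and 1 in 15% FBS. Rbl1, which encodes the pocket protein p107, went from 17.3, 18.6 and 20.3 to 35.3, 36.9 and 37.5 scaled CPM (log2FC 0.96, edgeR adjusted p = 2.79e-10). Nfyb, a subunit of the CCAAT-binding factor NF-Y, was the gene called lower in both, with log2FC of -0.29 and -0.28, and Mybl1, a relative of Mybl2, had the largest in 15% FBS (0.50), with groups that overlapped. Of 37 S-phase genes, 35 were called higher and 0 lower in 0.3% FBS (median log2FC 0.93) and 13 and 1 in 15% FBS (median 0.14). Cyclin E2 (Ccne2) led them in both, with log2FC of 1.60 and 0.79. The smallest of those called were the clamp loader subunit Rfc4 in 0.3% FBS (0.30) and Uhrf1, which maintains DNA methylation, in 15% FBS (-0.30, called lower). Rfc4 was near the threshold (edgeR adjusted p = 0.0484), and its groups overlapped. TTTGAA was in 48.6% of the promoters of the other spindle genes, 47.1% of those of condensin and cohesin genes, 30.0% of those of kinetochore genes, 28.6% for DREAM and MuvB genes, 23.1% for regulators of entry and exit and 13.5% for S-phase genes. TTGGCGC or TTCCCGC, forms of the E2F site, were in 22.9%, 58.8%, 35.0%, 9.52%, 7.69% and 51.4% of the same promoters, in 14.3% of those of the 40 genes and in 6.81% of all.

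**Figure D5:**
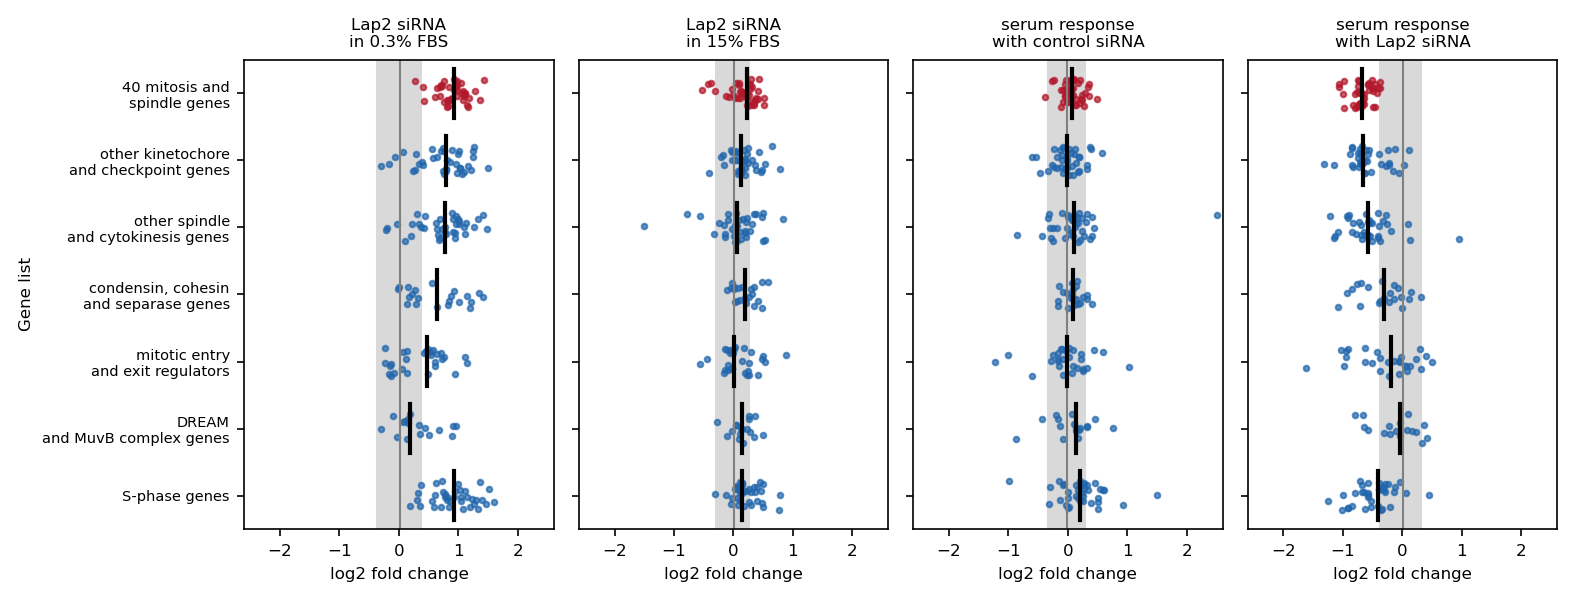
Log2 fold changes of the 40 mitosis and spindle genes (top row, red) and of 6 other gene lists (blue) in 4 comparisons. Each point is a gene, black bars are list medians, the grey band spans the quartiles of all tested genes and the grey line their median, and 1 gene beyond 2.5 is drawn near the edge. With Lap2 siRNA in 0.3% FBS the medians of all lists but the DREAM and MuvB list (0.18) lie right of the band. That list also holds Rb1, Dyrk1a and the NF-Y genes. The 40 genes and the S-phase genes are at 0.93 each. The serum response of Lap2-depleted cells has the 40 genes at -0.68.

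In 4 of the 6 other lists most genes were also lower after serum in Lap2-depleted cells. The numbers called lower were 31 of 38 kinetochore and checkpoint genes, 34 of 38 spindle and cytokinesis genes, 31 of 37 S-phase genes and 12 of 21 condensin, cohesin and separase genes, and 14 of 28 for regulators of entry and exit and 5 of 17 for DREAM and MuvB genes. The share of all tested genes called lower in that comparison was 14.9%. In control cells, 17 of 37 S-phase genes were called higher and 1 lower after serum, beside 15.6% and 13.9% of all tested genes. With total counts alone the S-phase genes had 9 called higher and 8 lower, and with upper-quartile factors 11 higher and 3 lower. The interaction was called lower for 22, 32, 29, 11, 12 and 3 genes of the same 6 lists in the same order, and higher for 1 in all, a regulator of entry and exit. Among all tested genes it was called lower for 6.51% and higher for 7.09%.

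Overlap with other genes could raise or lower some of these values, depending on how reads in shared exons were counted. The library kit keeps the strand, but the strand setting of the counting is not given in the sources used here, and 11 of the 40 genes share exon bases with a gene on the opposite strand. The largest shares of a gene's exon bases were those of Kif20a with Cdc23 (29.3%), Ube2c with Tnnc2 (22.8%), Kif4 with Pdzd11 (15.1%), Cdc25c with Gm3550 (12.7%), Ccna2 with Exosc9 (12.5%) and Prc1 with Rccd1 (11.1%). Tnnc2 and Gm3550 had few reads, with mean counts of 0.833 and 6.17 per library, while Cdc23 had a mean count of 1471 beside 1303 for Kif20a. Pdzd11 had 536.5 beside 574.9 for Kif4, Exosc9 721 beside 1470 for Ccna2, and Rccd1 229 beside 1698 for Prc1. Their part in the values of these genes was not tested.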

How the data were processed

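RNA was measured by RNA-seq in 12 libraries of NIH 3T3 cells, 3 in each of 4 groups. Per the study's methods, the authors removed ribosomal RNA (Ribo-Zero), made strand-marking libraries (NEBNext Ultra Directional), sequenced them on a NextSeq instrument, aligned reads to mm10 with TopHat2 and counted them per gene with HTSeq. The deposited values are these raw counts. Tool versions, the annotation and the strand setting of the counting are not given in the sources used here.

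The files give Ensembl identifiers and gene positions. Symbols came from a table of gene names and exon lengths and overlaps from GENCODE vM21, each of which matched 49326 of 49671 identifiers. The counts were analysed in R 4.3.3. A gene was kept when 3 or more libraries had a count above 1 (18668 genes), libraries were scaled by TMM, and 1 quasi-likelihood model over all 4 groups was fitted with edgeR 4.0.16 (glmQLFit and glmQLFTest). P-values were Benjamini-Hochberg adjusted over all genes tested, with a threshold of 0.05. The SE is the absolute log2FC divided by the square root of F. Exact permutation of 3 against 3 libraries cannot go below p = 0.1, so single genes were tested in the model. The fitting code was tested on simulated data.

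In each role, the genes with the largest and smallest absolute log2FC in either comparison of the siRNAs were described by every library. Of every other list, the called genes with the largest and the smallest log2FC were named, given a mean of at least 100 normalized counts. The 40 genes and the lists were chosen with earlier results of these data known. Alternatives were DESeq2 1.42.0, library size alone, upper-quartile factors, 2 other filters, leaving out each library, adding the replicate number as a block, and a fit to only the libraries of the 2 groups.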

Additional observations from a re-analysis of the deposited data

Results flagged for a closer look

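The effect of Lap2 siRNA differed between the serum conditions for all 40 genes and for Tmpo by the interaction term of the edgeR model (adjusted p under 0.05). The values below are the log2FC in 15% FBS minus that in 0.3% FBS. Among mitotic kinases and cyclins these were -0.80 for Cdk1, -0.70 for Ccna2, -0.71 for Ccnb1, -0.47 for Ccnb2, -0.84 for Plk1, -0.70 for Cdc25c, -0.69 for Nek2 and -0.71 for Aurka. For genes of the spindle assembly checkpoint and the APC/C they were -0.93 for Bub1, -0.68 for Bub1b, -0.69 for Mad2l1, -0.96 for Ttk, -0.47 for Cdc20 and -0.49 for Ube2c. In the chromosomal passenger complex they were -0.79 for Aurkb, -0.73 for Incenp, -0.69 for Birc5 and -0.81 for Cdca8. For centromere and kinetochore genes they were -0.49 for Cenpa, -0.75 for Cenpe, -0.96 for Cenpf, -0.79 for Nuf2, -0.86 for Ndc80 and -0.92 for Spc25. Among mitotic kinesins they were -0.88 for Kif11, -0.49 for Kif20a, -0.67 for Kif23, -0.37 for Kif2c, -0.77 for Kif4 and -0.99 for Kif18b. For other spindle and cytokinesis proteins they were -0.58 for Tpx2, -0.83 for Prc1, -0.88 for Anln, -0.78 for Ect2, -0.64 for Nusap1 and -0.74 for Hmmr. For chromosome structure and proliferation genes the differences were -0.74 for Top2a and -1.04 for Mki67. For the transcription factors they were -0.86 for Foxm1 and -0.98 for Mybl2. Tmpo, the siRNA target, had a difference of -0.79: it was lower with Lap2 siRNA by more after serum.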

How the results depend on the processing

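In 0.3% FBS all 40 genes were called higher with Lap2 siRNA under every alternative run. With library size alone, which shifted the median log2FC of all tested genes to -0.215, -0.226, 0.117 and 0.103 for serum with control siRNA, serum with Lap2 siRNA and Lap2 siRNA in 0.3% and 15% FBS, 1 of the 40 genes was called higher and 12 lower after serum in control cells (median -0.135), and the other medians were -0.91, 1.04 and 0.31. The summed level was then 2.02 and 1.17 times the control in 0.3% and 15% FBS. Of the other lists, 14 genes were then called higher and 56 lower after serum with control siRNA (44 and 17 as reported), 1 higher after serum with Lap2 siRNA (11), 0 lower with Lap2 siRNA in 0.3% FBS (2) and 80 higher in 15% FBS (53). Uncalled values changed sign: Tmpo after serum in control cells went from 0.17 (edgeR adjusted p = 0.0814) to -0.036, and in 15% FBS Cdca8 had 0.081, Kif18b 0.011 and Hmmr 0.059. Tmpo after serum in control cells was called higher with only the groups compared (0.17, edgeR adjusted p = 0.0123) and without replicate 1 of the serum-starved Lap2-depleted cells (0.18, edgeR adjusted p = 0.014). With upper-quartile factors the serum response of control cells had 4 genes lower and a median of -0.024, that of Lap2-depleted cells a median of -0.79, and the other lists had 25 higher and 33 lower, 7 higher, and 1 lower in 0.3% FBS. That last count was 6 with filterByExpr and 1 with only the groups compared. The cause of these changes was not tested.

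Leaving out 1 library gave 5 to 11 of the 40 genes higher and 2 to 3 lower after serum in control cells (median 0.05 to 0.11), 39 to 40 lower in Lap2-depleted cells (median -0.71 to -0.65), a median of 0.89 to 1.00 for Lap2 siRNA in 0.3% FBS, 12 to 19 higher and 3 to 4 lower in 15% FBS (median 0.17 to 0.25) and 38 to 40 lower in the interaction (median -0.86 to -0.71). The highest 11 and the 1.00 and -0.86 were without replicate 1 of the serum-starved control cells, and the 12 was without replicate 3 of the serum-stimulated control cells. The other lists had 0 to 7 genes lower in 0.3% FBS (Anapc2 and Nfyb as reported), 34 to 59 higher in 15% FBS (34 without replicate 3 of the serum-stimulated Lap2-depleted cells) and 0 to 1 higher in the interaction. In 15% FBS, uncalled values changed sign among these fits for Cdca8 (-0.054 to 0.024), Hmmr (-0.107 to 0.042) and Ccna2 (-0.032 to 0.093).

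Replicate numbers did not pair the libraries: the deviations of 18 same-numbered pairs correlated at -0.12 to 0.10, and 3 of 12 libraries correlated best with their own number. With the replicate number as a block, the counts of the 40 genes did not change in any comparison, and their medians were 0.93, 0.23, 0.07, -0.68 and -0.74 for Lap2 siRNA in 0.3% and in 15% FBS, serum in control cells, serum in Lap2-depleted cells and the interaction. The other lists then had 1 gene lower in 0.3% FBS.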
